A study of Homo sapiens with 9 samples.

Results

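The genes described here encode 10 enzymes of fatty acid synthesis, elongation, desaturation and activation: ACLY, ACACA, FASN, SCD, ELOVL5, ELOVL6, FADS1, FADS2, ACSL3 and ACSS2. They were chosen by name as the genes of this pathway, each symbol was matched to its Ensembl gene ID, and 10 of 10 were found among the 62257 gene rows of the deposited tables. Their transcripts were measured by RNA sequencing in A549, an established human lung adenocarcinoma line grown in DMEM with fetal bovine serum. Apoptotic extracellular vesicles (apoEVs) are membrane particles shed by dying cells. The DDP_apoEV group (3 libraries) had received vesicles from apoptosis induced with cisplatin (DDP), and the STS_apoEV group (3 libraries) vesicles from apoptosis induced with staurosporine (STS). The control group (3 libraries) had received phosphate-buffered saline, and in all groups RNA was taken after 96 h. The cells that shed the vesicles are not stated in the labels, cells given either drug alone were not analysed here, and A549 is a single line.

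Fatty acids are built in the cytosol from acetyl-CoA. ACLY makes acetyl-CoA from citrate and ACSS2 makes it from acetate, ACACA carboxylates it to malonyl-CoA, and FASN assembles both into palmitate. ELOVL6 and ELOVL5 lengthen acyl chains, SCD, FADS1 and FADS2 introduce unsaturated bonds, and ACSL3 activates free fatty acids by joining them to coenzyme A. Transcription of these genes is known to be driven by the sterol-regulated factors SREBP1 and SREBP2, with the nuclear receptor LXR acting on SREBF1 and SCD, and the pathway is active in many carcinoma lines.

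The libraries held 15949255 to 16526399 counts in DDP_apoEV, 13799950 to 14816996 in STS_apoEV and 14356195 to 15492993 in control. After a filter on low counts 16947 genes, unannotated transcripts included, were tested, and all 10 enzymes were among them. The mitochondrial genome's share of counts was 12.1% to 13.1% in DDP_apoEV, 12.7% to 13.1% in STS_apoEV and 11.4% to 12.5% in control. Whether libraries with the same label were grown as independent cultures is not stated, so a p-value here speaks only of the scatter among these libraries, and that scatter may be technical. A list of 10 epithelial and lung markers summed to 6920 to 7510 CPM (counts scaled to a common library size) in DDP_apoEV, 7290 to 8740 in STS_apoEV and 11200 to 12300 in control, with NKX2-1 at 0 in both vesicle groups. KRT8 gave 49.8%, 60.7% and 54.9% of that sum in DDP_apoEV, STS_apoEV and control. The 5 lists for fibroblasts, adipocytes, endothelium, leukocytes and red cells reached at most 20.4 CPM in any library, the leukocyte list being mostly CD14. The hepatocyte list ran from 11.4 to 15.4 CPM in DDP_apoEV, 30.9 to 34.5 in STS_apoEV and 38.1 to 40.5 in control, nearly all of it FGL1. What part these markers have in the results below was not tested.

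The promoter windows were read first for letters that SREBP and its usual partner factors bind, since the enzymes are textbook targets of SREBP. RefSeq windows of 250 bases before to 50 bases after a gene start (GRCh38.p14) matched 9 of the 10 genes, in 14 windows. FASN had no window, so nothing below on promoters covers it. The 3 sequences that follow belong to SCD, the most abundant of the transcripts, to ACLY, with the largest difference between the vesicle groups that passed the test, and to ELOVL5, with the smallest that passed it. Capitals mark the NF-Y box CCAAT or its reverse complement ATTGG. All are written 5′ to 3′ along the gene's own strand.

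SCD, chr10:100346983-100347282, plus strand: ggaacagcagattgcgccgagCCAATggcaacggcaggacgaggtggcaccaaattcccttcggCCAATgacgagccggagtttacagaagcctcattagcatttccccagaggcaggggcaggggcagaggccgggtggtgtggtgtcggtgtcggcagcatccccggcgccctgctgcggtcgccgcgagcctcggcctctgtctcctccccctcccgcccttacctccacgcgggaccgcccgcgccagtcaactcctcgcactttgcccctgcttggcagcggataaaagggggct
ACLY, chr17:41918973-41919272, minus strand: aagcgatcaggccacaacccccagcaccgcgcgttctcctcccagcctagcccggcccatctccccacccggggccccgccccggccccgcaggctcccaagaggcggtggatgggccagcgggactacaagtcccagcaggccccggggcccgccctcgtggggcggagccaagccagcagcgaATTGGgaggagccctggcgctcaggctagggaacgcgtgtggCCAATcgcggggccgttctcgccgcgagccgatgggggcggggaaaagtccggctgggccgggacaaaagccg
ELOVL5, chr6:53348901-53349200, minus strand: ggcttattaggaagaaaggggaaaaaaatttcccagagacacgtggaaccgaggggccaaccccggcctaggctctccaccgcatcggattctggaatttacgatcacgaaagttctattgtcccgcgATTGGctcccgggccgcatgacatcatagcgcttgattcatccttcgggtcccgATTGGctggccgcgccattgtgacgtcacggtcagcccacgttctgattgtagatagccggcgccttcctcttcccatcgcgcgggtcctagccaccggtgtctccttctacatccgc

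Each of these windows held 2 NF-Y boxes, beginning at −229 and −186 from the gene start in SCD, at −65 and −23 in ACLY, and at −122 and −68 in ELOVL5. These are the starts of the windows shown. In the other ACLY window, with another start, the same boxes begin at −136 and −94. The deposited ACLY span, on the minus strand, starts at 41930542, outside both windows. Searched on both strands, CCAAT was found in 9 of the 14 windows (64.3%), covering 7 of 9 genes, against 34.6% of all 35116 promoter windows in the table. The Sp1 box GGGCGG was in 11 of 14 windows (78.6%) and 8 of 9 genes, against 45% of all windows. The letters TCACNCCAC, searched as an SREBP site, were in 0 of 14 windows and in 1.13% of all windows, which says only that these letters are not in these windows. ELOVL6 and FADS1 had no NF-Y box in their windows, and ELOVL5 had no Sp1 box. Windows of different genes differ in base composition, and several genes have more than 1 window. The ACLY windows overlap and hold the same NF-Y and Sp1 boxes, which are counted in both, and the FADS2 windows overlap as well. The window counts are therefore not independent, and these matches are a description of letters.

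SCD stood far above the other enzymes. On the deposited FPKM scale, which divides by gene length and library total and so allows genes to be compared, SCD averaged 469.5 ± 92.2 in DDP_apoEV, 293 ± 16.7 in STS_apoEV and 438 ± 25.8 in control (SD, n = 3 each). In control it ranked 62 of 16483 coding genes above 0, and it made up 54.9% to 62.5% of the 10 enzymes' summed FPKM in every library. ACLY came next in DDP_apoEV (84.3 ± 14.5 FPKM) and in control (62.2 ± 1.35 FPKM). In STS_apoEV the order differed, with ELOVL5 at 45.2 ± 3.51 FPKM ahead of ACLY at 40.7 ± 1.62 FPKM. There the ACLY libraries overlapped those of FADS1, which came below it (38.2 ± 1.10 FPKM).

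Below these 3 came FADS1, FADS2, FASN and ACSL3, between 24.2 and 45.9 FPKM as group means. In DDP_apoEV each of the neighbours FADS1, FADS2, FASN and ACSL3 overlapped the next in its libraries. In STS_apoEV FASN overlapped ACSL3, and in control FADS2 overlapped FASN, so those levels did not differ beyond their spread. ELOVL6 averaged 12.2 ± 0.644 FPKM in DDP_apoEV, 8.97 ± 0.623 in STS_apoEV and 11.9 ± 1.55 in control. ACSS2 averaged 7.86 ± 0.294, 8.59 ± 0.114 and 9.31 ± 0.220 FPKM in DDP_apoEV, STS_apoEV and control, and its libraries overlapped those of ELOVL6 in STS_apoEV. Together the 10 enzymes took 0.438% to 0.572% of all counts in DDP_apoEV, 0.334% to 0.362% in STS_apoEV and 0.460% to 0.493% in control.

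**Figure D1:**
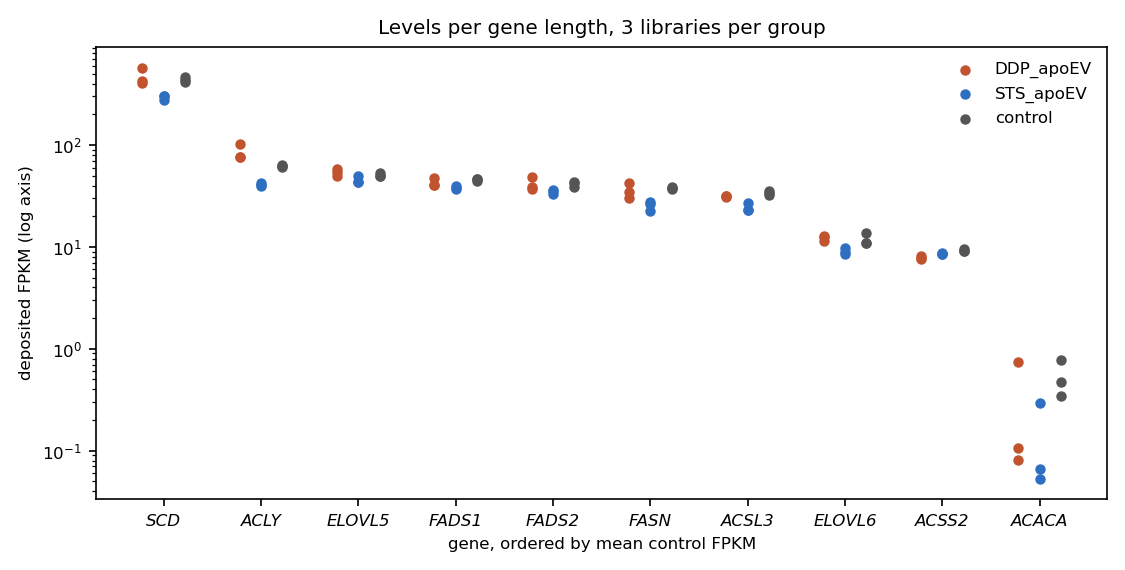
Deposited FPKM (y axis, log scale) of the 10 enzymes (x axis, ordered by mean control FPKM), with a point for each of the 3 libraries of DDP_apoEV, STS_apoEV and control. SCD lies near 293 to 470 FPKM as group means, the next 6 genes between 24.2 and 84.3, and ACACA below 1 in every library.

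ACACA, the enzyme that makes malonyl-CoA, could not be read at its deposited row. The row averaged 0.308 ± 0.372 FPKM in DDP_apoEV, 0.138 ± 0.136 in STS_apoEV and 0.528 ± 0.218 in control, far below FASN, the next enzyme of the pathway, at 35.6 ± 6.11, 25.5 ± 2.53 and 37.97 ± 1.20 FPKM in the same groups. Its counts were 17, 158 and 22 in the DDP_apoEV libraries, 56, 13 and 10 in the STS_apoEV libraries and 155, 91 and 65 in the control libraries. The row lies on chromosome 17 at 37084992 to 37406836, minus strand (ENSG00000278540, hg38 as deposited). A row with no gene name, at 37085827 to 37360778 on the minus strand of the alternate sequence CHR_HSCHR17_7_CTG4, held 216, 566 and 143 counts in DDP_apoEV, 200, 149 and 148 in STS_apoEV, and 409, 195 and 304 in control. That is 397% of the ACACA row's counts over all libraries. Over the 9 libraries this row had the pattern most like ACACA's, but the match was loose. Its root-mean-square log2 difference from ACACA was 0.895, against 0.959 for FRAS1, 0.991 for NUP160 and 1.348 for ACACA's own spread about its mean. DDP_apoEV replicate 2 was the highest of its group in both rows.

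Many of the genes around ACACA were also low. Of 46 coding genes, ACACA included, between 35809420 and 38626132 on chromosome 17, 20 (43.5%) were listed at 0 and the median summed count was 1.5, against 129 of 1138 (11.3%) at 0 and a median of 1096 elsewhere on the chromosome. CC chemokine and TBC1D3 genes made up 16 of the 20 at 0. Without them and ACACA, 4 of 23 genes were at 0 and the median was 47 counts. AATF, on one side of ACACA, was listed at 0 in every library, while TADA2A, on its other side, held 637 counts over all libraries and nearby GGNBP2, SYNRG and DDX52 held 796, 915 and 4398. Whether reads of ACACA were shared with or lost to the alternate copy was not tested, and the level of ACACA in these cells cannot be taken from its row.

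**Figure D2:**
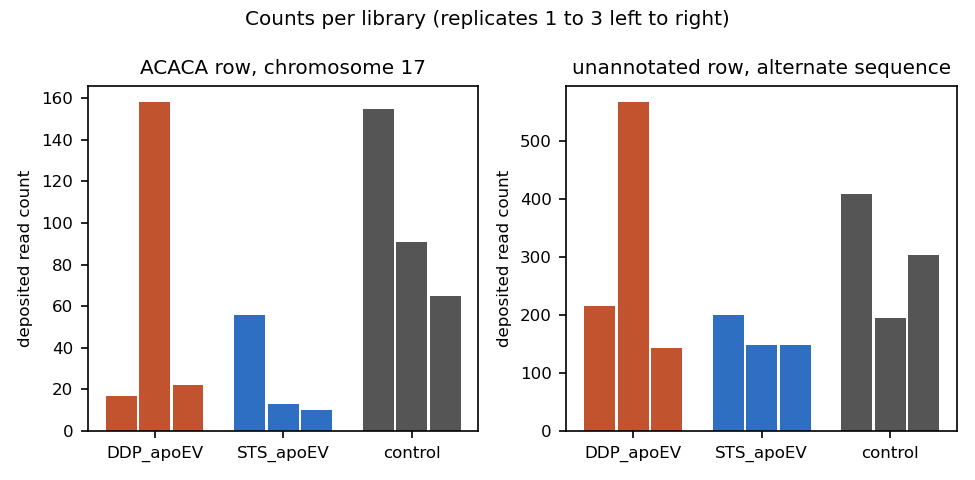
Deposited read counts (y axis) per library for the ACACA row on chromosome 17 (left) and for the unannotated row on the alternate sequence (right), with DDP_apoEV, STS_apoEV and control from left to right and replicates 1 to 3 within each group. The ACACA row ran from 10 to 158 counts and the alternate row from 143 to 566.

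With DDP_apoEV, the test called ACLY and ACSS2, in opposite directions, which is close to the shares called among all genes. The ACSS2 call was lost in several of the other fits, as given below. ACLY, which supplies acetyl-CoA from citrate, was 1.35-fold higher, ACSS2, which supplies it from acetate, was 1.19-fold lower, and the other 8 enzymes did not pass the test. So 1 of 10 rose and 1 of 10 fell at an adjusted p under 0.05 (edgeR's quasi-likelihood test, Benjamini-Hochberg adjustment), where 7.16% of all genes tested were called higher and 8.32% lower. The enzymes' median log2 fold change was −0.05, against −0.003 for all genes. Libraries of the 2 groups did not overlap for 3 of 10 enzymes (ACLY, ACSL3 and ACSS2), a share close to the 32.2% of all genes.

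With STS_apoEV, 7 of 10 enzymes fell and 0 rose. They were ACLY (1.51-fold lower), SCD (1.48-fold), FASN (1.47-fold), ACSL3 (1.38-fold), ELOVL6 (1.31-fold), FADS1 (1.19-fold) and FADS2 (1.18-fold). The test called 16.8% of all genes lower and 15.9% higher. The median log2 fold change of the 10 was −0.43, against 0.01 for all genes, and 10 of 10 values lay below 0. Libraries did not overlap for 9 of 10 enzymes, against 43.3% of all genes, ELOVL5 being the exception. ACACA, whose level could not be read, is counted in the median, in the 10 values below 0 and in the 9 enzymes that did not overlap. The medians of the other comparisons include it too.

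Between the vesicle groups, STS_apoEV against DDP_apoEV, 7 of 10 enzymes were lower and 0 higher. The difference was 2.04-fold for ACLY, 1.58-fold for SCD, 1.37-fold for FASN, 1.34-fold for ELOVL6, 1.27-fold for ACSL3, 1.18-fold for FADS2 and 1.17-fold for ELOVL5. Among all genes 19.5% were called lower and 20.2% higher. The enzymes' median was −0.38, against 0.03 for all genes, and libraries did not overlap for 8 of 10 enzymes, against 47.5% of all genes. The 3 comparisons share libraries, the control libraries between the comparisons with control and each vesicle group between its own 2 comparisons, so their values are given side by side. RNA was from bulk cultures, in which fewer cells making a transcript and less of it per cell cannot be told apart.

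**Figure D3:**
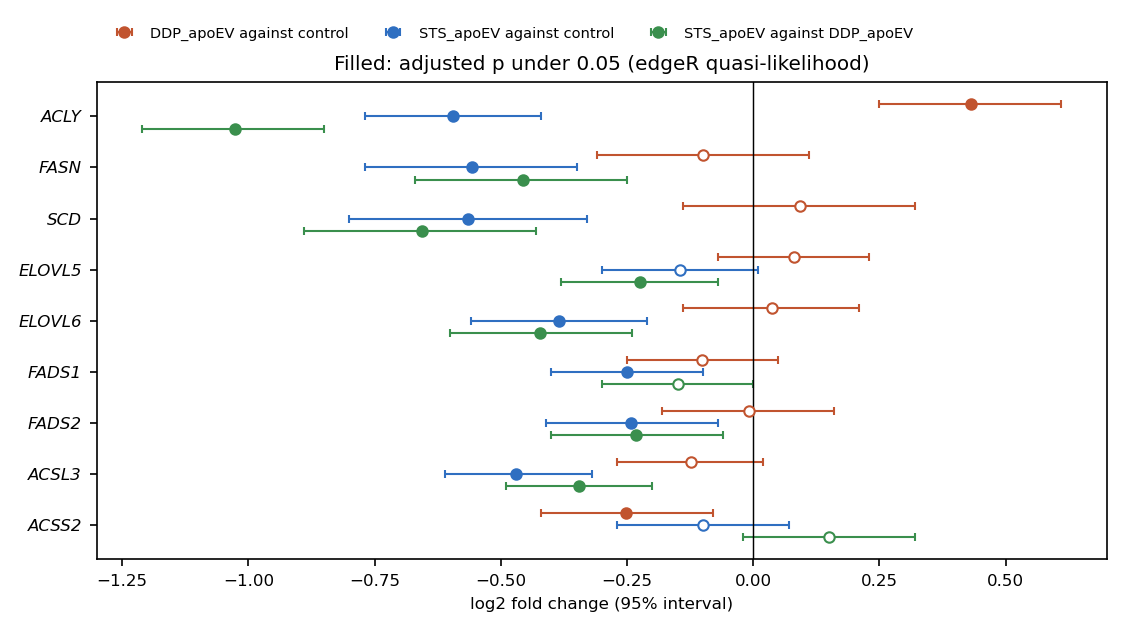
Log2 fold change (x axis) with its 95% interval for 9 enzymes (rows, ACACA left out for its wide intervals) in DDP_apoEV against control, STS_apoEV against control and STS_apoEV against DDP_apoEV, filled where the adjusted p is under 0.05. The STS_apoEV values against control all lie below 0, from −0.60 for ACLY to −0.10 for ACSS2, and ACLY lies on opposite sides of 0 for the 2 vesicle types.

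The acetyl-CoA suppliers ACLY and ACSS2 had different patterns. ACLY (ENSG00000131473) lies on chromosome 17 at 41866917 to 41930542, minus strand, and ACSS2 (ENSG00000131069) on chromosome 20 at 34872146 to 34927962, plus strand (hg38, as deposited, here and for the genes that follow). ACLY had 398.3, 528.1 and 396.8 CPM (scaled by library size with TMM) in the DDP_apoEV libraries, 216.6, 225.9 and 207.3 CPM in the STS_apoEV libraries, and 327.8, 318.2 and 335.7 CPM in the control libraries. The 3 groups did not overlap, with DDP_apoEV highest, control between and STS_apoEV lowest. Against control the log2 fold change was 0.43 (SE 0.0862, adjusted p = 0.000739) with DDP_apoEV and −0.60 (SE 0.0871, adjusted p = 5.32e-06) with STS_apoEV. The direct test of STS_apoEV against DDP_apoEV gave −1.03 (SE 0.0873, adjusted p = 4.32e-10). Without DDP_apoEV replicate 2, the highest library, the DDP_apoEV value was 0.28 (adjusted p = 0.0134) and the difference between vesicle groups −0.89 (adjusted p = 5.84e-11).

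ACSS2 had 40.4, 43.2 and 40.7 CPM with DDP_apoEV, 46.0, 46.7 and 45.3 CPM with STS_apoEV and 48.7, 50.4 and 48.9 CPM in control. Here too the groups did not overlap, but DDP_apoEV was lowest. The log2 fold change was −0.25 (SE 0.0825, adjusted p = 0.0337) with DDP_apoEV. Leaving out DDP_apoEV replicate 1 or 3 or any control library ended that call (adjusted p 0.126, 0.103, 0.0732, 0.108 and 0.079, in that order), with values between −0.26 and −0.23. With STS_apoEV the value was −0.10 (95% interval −0.27 to 0.07), and STS_apoEV against DDP_apoEV gave 0.15 (−0.02 to 0.32). Neither passed the test. The deposited ACSS2 span overlaps GGT7 on the opposite strand, whose row held 31.5% as many counts, and strand-specific counting is not stated.

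The ratio of ACSS2 to ACLY within a library, taken on FPKM and so free of library scaling, was 0.101, 0.0811 and 0.102 with DDP_apoEV, 0.211, 0.205 and 0.217 with STS_apoEV and 0.147, 0.157 and 0.144 in control. Each group lay apart from the others. The ratio was 0.629 times that of control with DDP_apoEV, 1.41 times with STS_apoEV, and 2.24 times as high in STS_apoEV as in DDP_apoEV. The two-sided exact permutation p was 0.1 in each case, which is the smallest that 3 against 3 libraries allow.

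FASN (ENSG00000169710), the multifunctional synthase, lies on chromosome 17 at 82078338 to 82098294, minus strand. It had 321.2, 395.5 and 283.8 CPM with DDP_apoEV, 263.0, 251.3 and 214.6 CPM with STS_apoEV and 367.3, 357.8 and 347.1 CPM in control. All STS_apoEV libraries lay below all others, while the DDP_apoEV libraries lay on either side of the control range. FASN fell with STS_apoEV (log2 fold change −0.56, 95% interval −0.77 to −0.35, adjusted p = 0.000269) and was lower than with DDP_apoEV (−0.46, adjusted p = 0.00128). With DDP_apoEV the value was −0.10 (95% interval −0.31 to 0.11). It was −0.24 (adjusted p = 0.0705) without DDP_apoEV replicate 2 and 0.004 without DDP_apoEV replicate 3. ACACA gave −0.78 (−3.14 to 1.58) with DDP_apoEV, −1.92 (−4.50 to 0.66) with STS_apoEV and −1.14 (−3.78 to 1.5) between the vesicle groups, none of which passed the test.

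SCD (ENSG00000099194), which turns saturated acyl-CoA into monounsaturated products, lies on chromosome 10 at 100347233 to 100364826, plus strand. It had 2139, 3026 and 2253 CPM with DDP_apoEV, 1615, 1469 and 1622 CPM with STS_apoEV and 2198, 2282 and 2482 CPM in control. The STS_apoEV libraries lay below every other library, and DDP_apoEV replicate 2 lay above the rest. SCD fell with STS_apoEV (log2 fold change −0.56, SE 0.108, adjusted p = 0.000862) and was lower than with DDP_apoEV (−0.66, SE 0.108, adjusted p = 0.000189). With DDP_apoEV against control it gave 0.09 (95% interval −0.14 to 0.32). Without DDP_apoEV replicate 2 that value was −0.08, and the difference between vesicle groups was −0.50 (adjusted p = 5.68e-06). The SCD to FASN ratio overlapped between groups in all 3 comparisons, with exact permutation p of 0.2, 1 and 0.2 for DDP_apoEV against control, STS_apoEV against control and STS_apoEV against DDP_apoEV. SCD5, the other human stearoyl-CoA desaturase gene, gave 0.19, 0.09 and −0.10 on the log2 scale in those comparisons and passed the test in none.

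**Figure D4:**
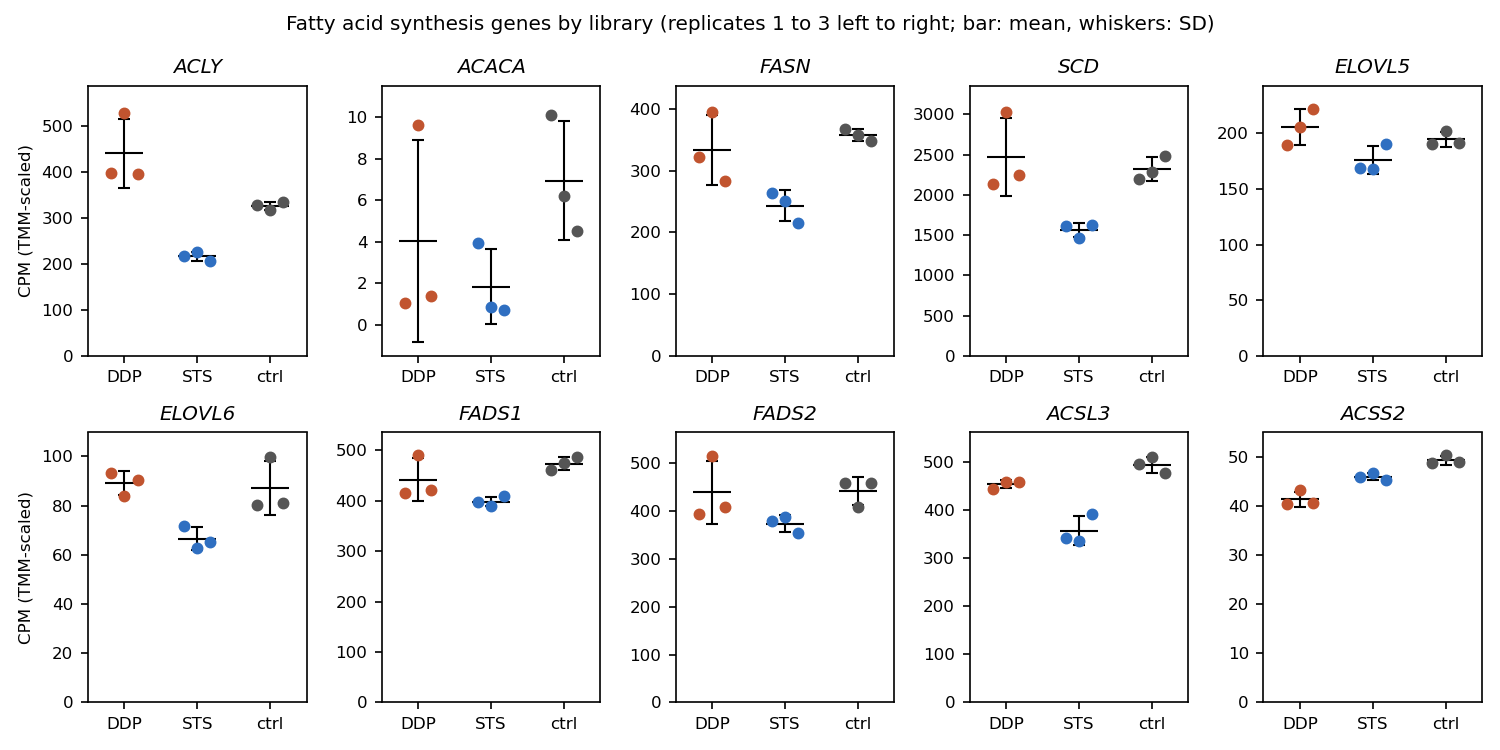
CPM scaled with TMM (y axis, a separate scale for each gene) of the 10 enzymes in every library, with DDP_apoEV (DDP), STS_apoEV (STS) and control (ctrl) from left to right; long bars are means and whiskers SD over 3 libraries. The STS_apoEV points lie below all control points for every gene except ELOVL5, and DDP_apoEV replicate 2 is the highest of its group for 8 of 10 genes.

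DDP_apoEV replicate 2 was the highest of its group for 8 of 10 enzymes, by a small margin for ACSL3, while it was the lowest for ELOVL6 and lay between the others for ELOVL5. Its median log2 distance from the control mean, over the 9 enzymes other than ACACA, was 0.08, against −0.15 and −0.11 in the other DDP_apoEV libraries. In each of the STS_apoEV libraries 9 of these 9 enzymes lay below the control mean, with medians of −0.27, −0.48 and −0.34. Without DDP_apoEV replicate 2 the counts of enzymes called were 1 higher and 1 lower for DDP_apoEV, 7 lower for STS_apoEV, and 6 lower between the vesicle groups.

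The elongases ELOVL6 (ENSG00000170522) and ELOVL5 (ENSG00000012660) lie on chromosome 4 at 110045846 to 110199199 and on chromosome 6 at 53267398 to 53349179, both on the minus strand. ELOVL6, which lengthens saturated and monounsaturated long chains, had 93.2, 83.9 and 90.6 CPM with DDP_apoEV, 71.9, 62.6 and 65.3 CPM with STS_apoEV and 80.4, 99.7 and 80.9 CPM in control. Its STS_apoEV libraries lay below all others. It fell with STS_apoEV (log2 fold change −0.39, SE 0.0877, adjusted p = 0.000780) and was lower than with DDP_apoEV (−0.42, adjusted p = 0.000205), whose own value against control was 0.04 (95% interval −0.14 to 0.21). ELOVL5, which lengthens polyunsaturated chains, had 189.4, 205.6 and 221.4 CPM with DDP_apoEV, 169.0, 167.9 and 190.5 CPM with STS_apoEV and 190.1, 202.1 and 190.8 CPM in control. STS_apoEV replicate 3 lay within the range of the other groups. Against control ELOVL5 gave 0.08 (−0.07 to 0.23) with DDP_apoEV and −0.14 (−0.30 to 0.01) with STS_apoEV, and it was lower in STS_apoEV than in DDP_apoEV (−0.22, adjusted p = 0.0170). Leaving out DDP_apoEV replicate 3 (−0.17, adjusted p = 0.120), STS_apoEV replicate 1 (−0.21, 0.0605) or STS_apoEV replicate 2 (−0.19, 0.0624) ended that call, and leaving out STS_apoEV replicate 3 brought the value against control past the threshold (−0.21, 0.0447). The ELOVL6 to ELOVL5 ratio overlapped between groups in all 3 comparisons (exact permutation p 0.5, 0.3 and 0.3 for DDP_apoEV against control, STS_apoEV against control and STS_apoEV against DDP_apoEV).

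FADS1 (ENSG00000149485) and FADS2 (ENSG00000134824), the front-end desaturases of polyunsaturated fatty acid synthesis, lie at a shared locus on chromosome 11. FADS1 had 414.6, 490.7 and 420.6 CPM with DDP_apoEV, 397.0, 389.7 and 409.0 CPM with STS_apoEV and 460.8, 475.1 and 485.9 CPM in control. The STS_apoEV libraries were the lowest 3 of the 9. FADS1 fell with STS_apoEV (log2 fold change −0.25, SE 0.0722, adjusted p = 0.00711), while the values of −0.10 with DDP_apoEV (95% interval −0.25 to 0.05) and −0.15 between the vesicle groups (SE 0.0722, adjusted p = 0.101) did not pass. FADS2 had 394.2, 514.5 and 409.4 CPM with DDP_apoEV, 380.2, 387.0 and 354.1 CPM with STS_apoEV and 459.0, 409.0 and 457.7 CPM in control. Its STS_apoEV libraries too were the lowest 3 of the 9. FADS2 fell with STS_apoEV (−0.24, SE 0.0835, adjusted p = 0.0259) and was lower than with DDP_apoEV (−0.23, adjusted p = 0.0267), while DDP_apoEV against control gave −0.01 (−0.18 to 0.16).

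Both FADS2 calls were lost with some libraries left out. The call against control was lost without STS_apoEV replicate 3 (−0.21, adjusted p = 0.109), control replicate 1 (−0.23, 0.0783) or control replicate 3 (−0.23, 0.0678). The call between the vesicle groups was lost without DDP_apoEV replicate 2 (−0.12, 0.264) or STS_apoEV replicate 3 (−0.20, 0.112). The deposited FADS2 span, 61792980 to 61867354 on the plus strand, contains all of FADS1, 61799627 to 61829318 on the minus strand, and also overlaps FEN1, a DNA replication nuclease gene on the plus strand whose row held 31.1% as many counts as FADS2. Since the counting is not stated to use strand, reads of these genes cannot be told apart where they overlap, and the FADS1 to FADS2 ratio, which overlapped between groups in all 3 comparisons, is uncertain for the same reason. FEN1 itself fell with STS_apoEV (−0.41, adjusted p = 3.53e-05). FADS3, the neighbour at 61873519 to 61892051 on the minus strand, went the other way, with 20.4, 22.6 and 21.9 CPM in DDP_apoEV, 35.7, 35.1 and 34.1 CPM in STS_apoEV and 17.6, 18.3 and 21.9 CPM in control. The STS_apoEV libraries were all above the others, and FADS3 rose with STS_apoEV (0.86, adjusted p = 7.7e-08).

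ACSL3 (ENSG00000123983), a long-chain acyl-CoA synthetase of the endoplasmic reticulum and lipid droplets, lies on chromosome 2 at 222860942 to 222944639, plus strand. It had 444.4, 458.9 and 458.4 CPM with DDP_apoEV, 343.1, 336.5 and 391.5 CPM with STS_apoEV and 496.3, 510.0 and 476.8 CPM in control. The 3 groups did not overlap, with control highest and STS_apoEV lowest. ACSL3 fell with STS_apoEV (log2 fold change −0.47, SE 0.0712, adjusted p = 3.26e-06) and was lower than with DDP_apoEV (−0.35, adjusted p = 0.000188). With DDP_apoEV the value of −0.12 (95% interval −0.27 to 0.02) did not pass.

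Transcripts of the regulators known to drive these genes were called in both directions, with STS_apoEV in shares no larger than those of all genes. SREBF1, which encodes SREBP1, had 177.4, 194.8 and 156.0 CPM with DDP_apoEV, 175.9, 177.6 and 159.2 CPM with STS_apoEV and 199.3, 189.3 and 192.4 CPM in control. The STS_apoEV libraries lay below those of control and the DDP_apoEV libraries overlapped both, and the log2 fold changes of −0.14 (adjusted p = 0.263), −0.18 (0.0758) and −0.04 (0.7) for DDP_apoEV against control, STS_apoEV against control and STS_apoEV against DDP_apoEV did not pass. Without DDP_apoEV replicate 2, which also enters the shared estimate of spread, the STS_apoEV value passed (−0.20, adjusted p = 0.0447). Of 15 tested genes of SREBP and LXR control, 1 rose and 3 fell with DDP_apoEV, 2 rose and 1 fell with STS_apoEV, and 5 were higher and 1 lower in STS_apoEV than in DDP_apoEV, with medians of −0.11, 0.03 and 0.14. Of all genes, 7.16% were called higher and 8.32% lower with DDP_apoEV, and 15.9% and 16.8% with STS_apoEV. Between the vesicle groups 20.2% were higher and 19.5% lower. These shares stand beside every list count below, and no list was tested against them. SREBF2 fell with DDP_apoEV (−0.32, adjusted p = 0.0111), a call that ended without DDP_apoEV replicate 1 (−0.29, 0.0607), DDP_apoEV replicate 3 (−0.28, 0.0603) or control replicate 1 (−0.26, 0.0892). It gave 0.07 with STS_apoEV. MBTPS2, a protease that releases SREBP, was the 1 gene of the list that fell with STS_apoEV (−0.21, adjusted p = 0.0373), and this call was lost without STS_apoEV replicate 1 (−0.22) or 2 (−0.18) or control replicate 2 (−0.20) or 3 (−0.21).

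INSIG1 and INSIG2, which hold the SREBP escort SCAP in the endoplasmic reticulum, fell with DDP_apoEV (−0.45 and −0.46, adjusted p = 0.000116 and 0.000655) and gave −0.10 and 0.05 with STS_apoEV, which did not pass the test. Both were higher in STS_apoEV than in DDP_apoEV (0.35 and 0.51, adjusted p = 0.000730 and 4.96e-05). SCAP, the ChREBP gene MLXIPL and MID1IP1, a partner of acetyl-CoA carboxylase, passed in no comparison. Of the LXR side, NR1H3 rose with DDP_apoEV (0.40, adjusted p = 0.0376), a call lost without DDP_apoEV replicate 1 (0.33), DDP_apoEV replicate 2 (0.40), control replicate 1 (0.35) or control replicate 2 (0.33), and RXRA rose with STS_apoEV (0.36, adjusted p = 0.00492). ABCA1, the LXR-regulated cholesterol exporter, rose with both vesicle types (5.28-fold and 2.66-fold) and was 1.99-fold lower in STS_apoEV than in DDP_apoEV. Of the 7 tested LXR targets outside lipogenesis, 1 rose and 0 fell with DDP_apoEV, 2 rose and 1 fell with STS_apoEV, and 1 was higher and 2 lower between the vesicle groups. APOC1, an apolipoprotein gene of that list, was 1.60-fold lower with STS_apoEV (adjusted p = 8.19e-05).

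Genes that supply the pathway were called in both directions with DDP_apoEV, while those called with STS_apoEV fell. The list of acetyl unit, NADPH and carrier-protein cofactor supply had 15 tested genes, among them ACACB and MLYCD, which make and degrade malonyl-CoA. Of the 15, 3 rose and 4 fell with DDP_apoEV, and 2 rose and 6 fell with STS_apoEV. The 2 that rose with STS_apoEV were ACACB and MLYCD, described below. Between the vesicle groups 3 were higher and 4 lower. The medians were −0.05, −0.12 and −0.06 in those comparisons. DLAT, a subunit of pyruvate dehydrogenase, had 49.7, 52.0 and 45.2 CPM with DDP_apoEV, 28.8, 29 and 32.5 CPM with STS_apoEV and 45.1, 47.8 and 45.1 CPM in control. Its STS_apoEV libraries lay below all others, and it fell with STS_apoEV (−0.61, adjusted p = 2.12e-06). The other STS_apoEV falls were CS, which makes citrate (−0.31), the pyruvate dehydrogenase subunits PDHA1 (−0.36) and PDHB (−0.27), the pyruvate carrier subunit MPC2 (−0.36) and malic enzyme ME1 (−0.19, adjusted p = 0.0370). The ME1 call was lost without STS_apoEV replicate 1 or 2 or control replicate 2 or 3, with values from −0.20 to −0.18. MPC1, the other subunit of the pyruvate carrier, was 1.67-fold lower with DDP_apoEV at 3.63, 3.35 and 4.26 CPM, against 6.96, 6.70 and 5.07 CPM in control (adjusted p = 0.0114), and that call was lost without DDP_apoEV replicate 2 (−0.66), control replicate 1 (−0.65) or control replicate 2 (−0.69). CS, PDHA1, PDHB and MPC2 are named after their values were seen.

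ACACB, the mitochondrial-membrane acetyl-CoA carboxylase whose product restrains fatty acid oxidation, had 22.9, 27.0 and 23.1 CPM with DDP_apoEV, 29.5, 25.8 and 22.2 CPM with STS_apoEV and 16.6, 16.9 and 16.4 CPM in control. Both vesicle groups lay above control, and ACACB rose with DDP_apoEV (0.55, adjusted p = 0.000862) and with STS_apoEV (0.63, adjusted p = 5.66e-05). MLYCD, which degrades malonyl-CoA, had 9.75, 8.77 and 5.28 CPM with STS_apoEV, against 6.25, 4.10 and 4.65 CPM in control, and rose (0.66, adjusted p = 0.0162). The groups overlapped, and the MLYCD call was lost without STS_apoEV replicate 1 (0.48) or 2 (0.58) or control replicate 2 (0.52) or 3 (0.60).

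Of 15 tested other genes of elongation and desaturation, 0 rose and 3 fell with DDP_apoEV, 2 rose and 3 fell with STS_apoEV, and 3 were higher and 3 lower between the vesicle groups. ELOVL2, an elongase of very long polyunsaturated chains, had 26.4, 30.5 and 29.9 CPM with DDP_apoEV, 12.5, 13.2 and 13.9 CPM with STS_apoEV and 35.3, 32.1 and 29 CPM in control. Its STS_apoEV libraries lay below all others, and it was 2.43-fold lower than control (−1.28, adjusted p = 5.48e-11). CYB5B, a cytochrome b5, had 615.4, 618.9 and 631.0 CPM with DDP_apoEV, 902.6, 939.9 and 972.9 CPM with STS_apoEV and 880.2, 891.2 and 974.3 CPM in control. It fell with DDP_apoEV (−0.56, adjusted p = 2.2e-07) and gave 0.04 with STS_apoEV.

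Among 10 tested other acyl-CoA synthetases and fatty acid carriers, 1 rose and 3 fell with DDP_apoEV, 2 rose and 3 fell with STS_apoEV, and 3 were higher and 3 lower between the vesicle groups. SLC27A2, a very-long-chain acyl-CoA synthetase and fatty acid transporter, was 1.45-fold lower with DDP_apoEV (adjusted p = 8.25e-06) and 1.51-fold lower with STS_apoEV (adjusted p = 5.84e-07). SLC27A1, a fatty acid transport protein, had 4.75, 4.27 and 5.65 CPM with DDP_apoEV, 11.7, 14.2 and 11.1 CPM with STS_apoEV and 6.44, 7.11 and 7.57 CPM in control. The groups did not overlap, and SLC27A1 fell with DDP_apoEV (−0.53, adjusted p = 0.0417) and rose with STS_apoEV (0.81, adjusted p = 0.000305). The DDP_apoEV call was near the threshold, and whether it holds in other fits was not examined. FABP5, an intracellular fatty acid carrier, rose with DDP_apoEV (0.38, adjusted p = 0.00204).

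Genes that use or break down fatty acids moved in both directions. Of 16 tested genes of glycerolipid synthesis and lipid droplets, 4 rose and 2 fell with DDP_apoEV, 6 rose and 3 fell with STS_apoEV, and 5 were higher and 6 lower between the vesicle groups. PNPLA2, the triglyceride lipase of lipid droplets, had 19.5, 25.4 and 20.6 CPM with DDP_apoEV, 44.4, 46.0 and 39.9 CPM with STS_apoEV and 21.5, 17.2 and 21.7 CPM in control. All STS_apoEV libraries lay above the others, and PNPLA2 was 2.16-fold higher with STS_apoEV (adjusted p = 1.33e-09). The droplet coat gene PLIN2 rose with DDP_apoEV (0.26, adjusted p = 0.0231) and STS_apoEV (0.36, adjusted p = 0.000564), and the call with DDP_apoEV was lost without DDP_apoEV replicate 1 (0.21), control replicate 1 (0.27) or control replicate 3 (0.23). MGLL, which hydrolyses monoglycerides, was 1.25-fold and 1.73-fold lower with DDP_apoEV and STS_apoEV. PLIN3, another droplet coat gene, rose with DDP_apoEV (0.30, adjusted p = 0.0130), a call lost without DDP_apoEV replicate 1 (0.29) or 2 (0.24) or control replicate 2 (0.26). LPCAT3, which places polyunsaturated chains into phospholipids, passed in no comparison, though without control replicate 1 its value with STS_apoEV passed (−0.46, adjusted p = 0.0433).

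Of 22 tested fatty acid oxidation genes, 1 rose and 1 fell with DDP_apoEV, 6 rose and 3 fell with STS_apoEV, and 8 were higher and 5 lower between the vesicle groups. With DDP_apoEV the oxidation-cycle enzyme ECHS1 rose (0.27, adjusted p = 0.0114), a call lost without DDP_apoEV replicate 1 (0.22) or control replicate 2 (0.23), and PPARA, a nuclear receptor that drives oxidation genes, was 1.96-fold lower (adjusted p = 0.000619). The carnitine transferase CPT1A, the entry step into mitochondria, rose with STS_apoEV (0.28, adjusted p = 0.0199) and was higher than with DDP_apoEV (0.36, adjusted p = 0.00250). Its call against control was lost without STS_apoEV replicate 1 (0.27) or 3 (0.25) or control replicate 1 (0.25) or 2 (0.22). ETFB, an electron carrier of oxidation, was 1.79-fold higher with STS_apoEV, and HADH and ACAA2, enzymes of the oxidation cycle, were 1.39-fold and 1.29-fold lower. Of 8 tested genes of mitochondrial fatty acid synthesis, 0 passed with STS_apoEV. MCAT, the malonyl transferase, rose with DDP_apoEV (0.45, adjusted p = 0.0257), a call lost without DDP_apoEV replicate 1 (0.34) or 2 (0.41) or any control library (0.39 to 0.48). LIPT2, a lipoyl transferase, was higher in STS_apoEV than in DDP_apoEV (0.62, adjusted p = 0.0333), and without DDP_apoEV replicate 1 its value was 0.33 (adjusted p = 0.275).

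Sterol synthesis and uptake genes, the targets of SREBP2, fell with both vesicle types, 10 of 16 with DDP_apoEV and 12 of 16 with STS_apoEV, and 0 rose in either. Of all genes 8.32% and 16.8% were called lower in those comparisons. HMGCS1, an early enzyme of that route, was 1.63-fold and 2.10-fold lower with DDP_apoEV and STS_apoEV. Their median log2 fold changes were −0.34 and −0.30, beside −0.05 and −0.43 for the fatty acid enzymes, and between the vesicle groups the sterol list had a median of 0.02 with 4 higher and 3 lower, beside −0.38 for the fatty acid enzymes.

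**Figure D5:**
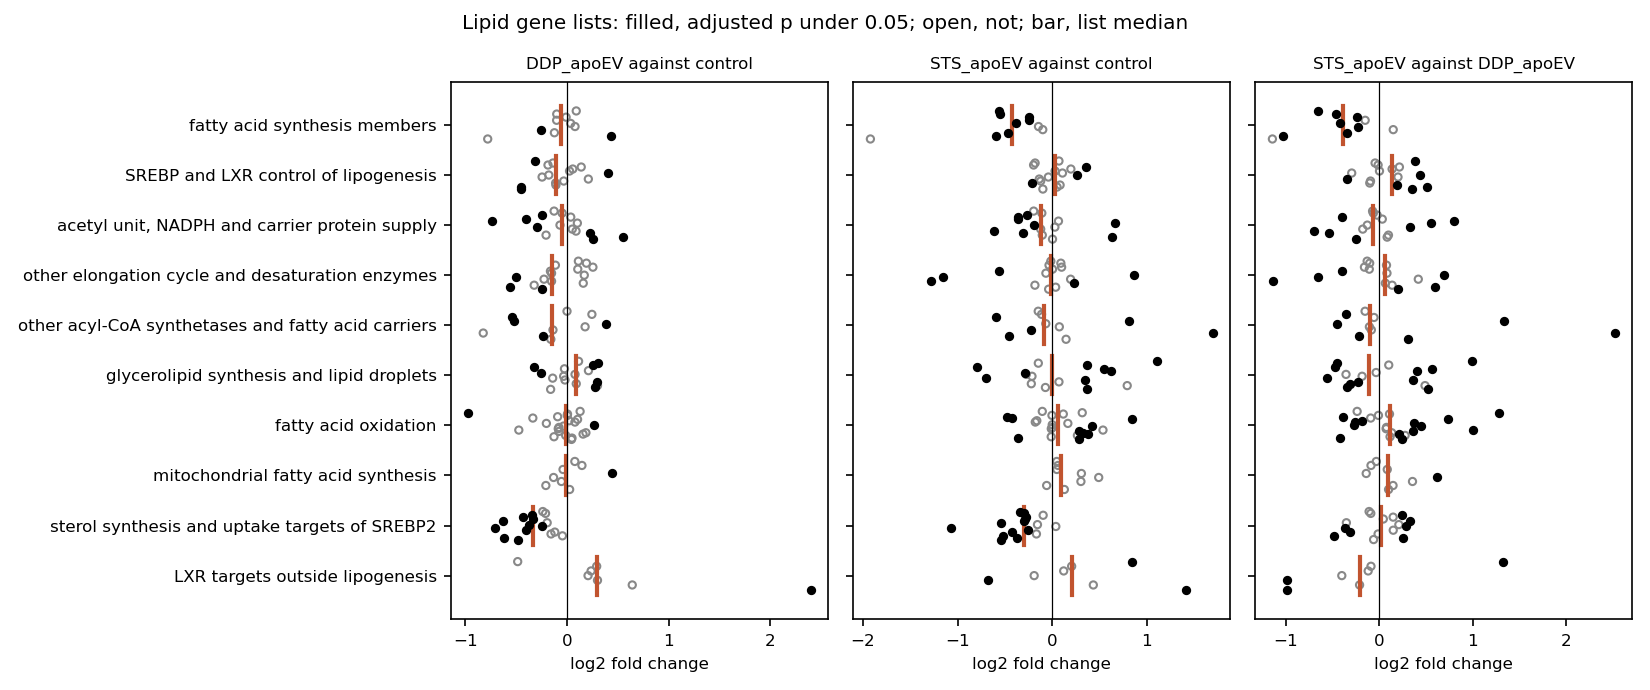
Log2 fold change (x axes) of every tested gene of the 10 fatty acid enzymes and of 9 further lipid gene lists (rows) in DDP_apoEV against control, STS_apoEV against control and STS_apoEV against DDP_apoEV, filled where the adjusted p is under 0.05, with a bar at each list's median. The fatty acid enzymes have medians of −0.05, −0.43 and −0.38 and the sterol genes −0.34, −0.30 and 0.02 in the 3 panels.

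The gene whose pattern was most like each enzyme's was found by the root-mean-square difference of centred log2 CPM over the 9 libraries, among 9890 genes. The nearest genes were CLDN1 for ACLY (0.088), ATP9B for FASN (0.055), EIF4E3 for SCD (0.082), MTPN for ELOVL5 (0.041), CDCA2 for ELOVL6 (0.060), ME1 for FADS1 (0.043), B4GALNT1 for FADS2 (0.041), TRA2B for ACSL3 (0.038) and ATP6V1A for ACSS2 (0.022). For ACACA it was the unannotated row on the alternate sequence, at a far larger 0.895. The enzymes were not each other's nearest neighbours. FADS1 was the nearest of the 10 to FADS2, at rank 36 of all genes, and SCD and FASN were nearest to each other among the 10 at 0.156, FASN at rank 216 for SCD and SCD at rank 209 for FASN.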

How the data were processed

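Per the labels' protocols, total RNA was taken with TRIzol and turned into libraries with the NEBNext Ultra RNA kit. The submitters' processing notes name the build hg38 and HISAT2 2.0.5, StringTie 1.3.3b, featureCounts 1.5.0-p3, Subread and limma, without roles or order. The authors deposited raw whole-number counts and FPKM for 62257 rows and 9 libraries, with each row's coordinates and gene length. Recomputing FPKM from the deposited counts, gene lengths and totals returned the deposited FPKM up to a constant of 0.944 to 1.01 in each library, which no source used here explains. Rows with no annotated gene (705) held 0.313% to 0.357% of counts. They are transcripts with coordinates of their own and were kept, and 467 of them were among the genes tested. Gene types came from GENCODE 29, whose release differs from the deposited annotation.

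Groups and replicate numbers came from sample titles. Counts were tested with edgeR 4.0.16 (R 4.3.3; quasi-likelihood test, robust, TMM scaling, default filter, all 9 libraries in 1 fit, no covariates), which was also tested on simulated data, and a gene was called at 0.05 after Benjamini-Hochberg adjustment over 16947 genes. Each SE was obtained as the absolute log2 fold change over the root of its F statistic. CPM use TMM-scaled library sizes, except summed marker lists, which use plain totals. Ratios of enzymes were tested with exact permutation tests. Same-numbered libraries of different groups had correlations of −0.0847 to 0.0547 over all tested genes, each gene centred on its group mean. With 3 libraries per group this cannot decide whether the numbers pair the samples, which the labels do not state.

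The enzymes, the 9 companion lists (133 genes) and the tests were chosen with earlier results of these data known. Named companions were 13 fixed regulators and lipid genes, and in each list and comparison the called genes with the largest rise and fall at a mean log2 CPM of at least 1. Alternatives were scaling by median of ratios or upper quartile, leaving out the filter or asking for 1 CPM in 3 libraries, limma-voom (limma 3.58.1), DESeq2 1.42.0, limma on log2(FPKM + 1), filtered at a mean FPKM of 1 or unfiltered, and on log2(FPKM + 0.1), a replicate block, fits of only the groups compared, and fits omitting every library in turn. Genes whose reads overlap another gene, or an alternate sequence, are given as uncertain.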

Additional observations from a re-analysis of the deposited data

Results flagged for a closer look

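Of the 53 enzymes and companion genes named by the rule for naming, 36 differed in the direct test of STS_apoEV against DDP_apoEV (edgeR's quasi-likelihood test, adjusted p under 0.05). Of all 16947 genes tested 6721 differed, 20.2% being higher and 19.5% lower. Many companions were named because they were called, some only in this same comparison. The 36 of 53 was therefore raised by the choice of genes and cannot be set against the share of all genes. Among the enzymes these were ACLY (log2 fold change −1.026), SCD (−0.657), FASN (−0.457), ELOVL6 (−0.422), ACSL3 (−0.346), FADS2 (−0.233) and ELOVL5 (−0.225). Only ACLY of these was called in opposite directions against control. The ELOVL5 and FADS2 values passed or missed the threshold depending on which library was left out, as given above.

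The named companion genes lower in STS_apoEV than in DDP_apoEV were ELOVL2 (−1.132), ABCA1 (−0.990), APOC1 (−0.980), DLAT (−0.701), the droplet protein gene HILPDA (−0.554), the sterol enzyme gene DHCR7 (−0.479), MGLL (−0.470), FABP5 (−0.452), PLIN3 (−0.450), ACAA2 (−0.416), HADH (−0.382), HMGCS1 (−0.364), the ChREBP partner gene MLX (−0.348) and ECHS1 (−0.267). DHCR7 was at −0.31 without DDP_apoEV replicate 2 and was not called without STS_apoEV replicate 3 (−0.46, adjusted p = 0.0679).

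Those higher in STS_apoEV were SLC27A1 (1.334), the LXR-responsive gene SMPDL3A (1.323), PPARA (1.286), PNPLA2 (0.993), MPC1 (0.804), ETFB (0.735), FADS3 (0.691), LIPT2 (0.622), CYB5B (0.594), MLYCD (0.560), INSIG2 (0.507), SREBF2 (0.387), CPT1A (0.361), INSIG1 (0.352) and the sterol enzyme gene MVD (0.326). LIPT2 was also not called without any single STS_apoEV library, and MVD not without DDP_apoEV replicate 3 (0.26, adjusted p = 0.0510). MLYCD was not called without any single DDP_apoEV library (0.54 to 0.56) or without STS_apoEV replicate 1 (0.38) or 2 (0.48). It also missed the threshold with no filter on counts (adjusted p = 0.0549), DESeq2 (0.0575) and limma-voom (0.0504). LIPT2 missed it with DESeq2 (0.0507) and in every limma fit on FPKM. SLC27A1, PPARA, SMPDL3A, MPC1, MLYCD and LIPT2 are low genes, with means of 3.74 to 12.3 CPM over the vesicle groups.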

How the results depend on the processing

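Of the 7 enzymes called lower with STS_apoEV, ACLY, FASN, SCD and ACSL3 passed under all 20 alternatives, ELOVL6 and FADS1 under 19 and FADS2 under 14, with no change of direction. Between the vesicle groups ACLY, FASN, SCD, ELOVL6 and ACSL3 passed under 20 of 20, ELOVL5 under 16 and FADS2 under 15, again in 1 direction. With DDP_apoEV, ACLY passed under 19 of 20 and ACSS2 under 12. Limma on log2(FPKM + 1) without a filter called fewest: 787 genes, 0 enzymes higher and 0 lower with DDP_apoEV, against 2623, 1 and 1; 3312 genes and 4 enzymes lower with STS_apoEV, against 5552 and 7; and 4352 genes between the vesicle groups, against 6721. With the FPKM filter, log2(FPKM + 1) called 1617 genes with DDP_apoEV and log2(FPKM + 0.1) called 1638. The count of enzymes lower with DDP_apoEV was 0 with no filter on counts and 0 with the replicate block, and 0 to 1 with a library left out. The replicate block called 2359, 5297 and 6429 genes in DDP_apoEV against control, STS_apoEV against control and STS_apoEV against DDP_apoEV, and otherwise ended the ME1 call with STS_apoEV. With DDP_apoEV, the NR1H3 and PLIN2 calls were lost with no filter on counts. NR1H3, MCAT and SREBF2 lost theirs in every limma fit on FPKM. With STS_apoEV, CPT1A and MBTPS2 were not called in any FPKM fit. Upper-quartile scaling ended the MBTPS2 and ME1 calls, and leaving out the count filter ended that of ME1. The unfiltered FPKM fit ended further companion calls. Values that changed direction with a library left out were all uncalled. With DDP_apoEV they ranged from −0.24 to 0.004 for FASN, −0.078 to 0.186 for SCD, −0.016 to 0.146 for ELOVL6, −0.136 to 0.064 for FADS2, −0.091 to 0.252 for LPCAT3 and −0.088 to 0.026 for MID1IP1. With STS_apoEV they ranged from −0.267 to 0.114 for MLXIPL, −0.032 to 0.162 for SCD5 and −0.008 to 0.145 for SREBF2. Between the vesicle groups they ranged from −2.351 to 0.553 for ACACA, −0.028 to 0.181 for ACACB, −0.023 to 0.325 for MLXIPL, −0.11 to 0.075 for SCAP and −0.127 to 0.019 for SREBF1, and SCAP was 0.021 with upper-quartile scaling. The cause of these changes was not tested. Counts of 10 to 158 per library limit ACACA, and 3 libraries per group limit differences under about the interval widths given.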
